A study of Mus musculus with 72 samples.

Results

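The complement genes C1qa, C1qb, C3ar1 and C4a and the C4a.b probe, which detects C4a and C4b together, were followed across 3 genotypes and both sexes of mice with amyloid plaques. They were the rows of the log2 matrix that carry these 5 names, out of 1266 genes measured. RNA from the cortex of 36 mice aged 7.5 months was counted with 2 NanoString nCounter panels, which count fluorescent barcodes hybridised to a fixed set of transcripts without amplification. There were 12 5xFAD mice with the P522R variant of Plcg2 (P522R mice), 12 5xFAD mice with the M28L variant (M28L mice) and 12 5xFAD mice without either (5xFAD mice), each with 6 females and 6 males. Mice of all groups carried the 5xFAD transgenes, human amyloid precursor protein and presenilin genes with familial Alzheimer mutations driven by the Thy1 promoter in neurons. Mice without 5xFAD were not analysed here, nor was Plcg2 itself, so every difference is one between plaque-bearing cortices. The study asked how these variants of phospholipase C-gamma-2, a signalling enzyme of microglia, alter the microglial phenotype.

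Complement marks targets for removal. C1q, a hexamer of trimers built from the A, B and C chains, binds immune complexes, amyloid and synapses and starts the classical pathway through the proteases C1r and C1s. These cleave C4, whose fragment joins the enzyme that cleaves C3, and the released C3a signals through its receptor C3aR1. In the mouse brain microglia are the main source of C1q and carry most C3ar1, whereas C4b is made by astrocytes and oligodendrocytes and rises near plaques. The question is therefore how the microglial and the astrocyte-derived parts of the pathway stood to each other in the 6 groups. In bulk cortex the cell of origin was not measured, and fewer cells of a type cannot be told apart from less RNA per cell.

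In the GRCm38.p6 gene table the C1q chains C1qb, C1qc and C1qa are neighbours on chromosome 4, with 0 protein-coding genes between them. C3ar1 lies on chromosome 6. C4b and C4a lie on chromosome 17 with 1 protein-coding gene, Cyp21a1, between them, and the table lists C4b as protein-coding and C4a, also known as Slp, as a transcribed pseudogene. Probe positions were not used here. RefSeq promoters of GRCm38.p6 were found for C1qb, C1qc and C3ar1, out of 6 genes looked up. The 250 bases before each start are shown for these C1q chains and for C3ar1, another microglial gene. Whether the promoters relate to any difference between groups was not tested. Capitals mark the core GAGGAA of PU.1, the myeloid transcription factor encoded by Spi1, or its reverse complement TTCCTC.
C1qb, chr4:136886201-136886450, strand -: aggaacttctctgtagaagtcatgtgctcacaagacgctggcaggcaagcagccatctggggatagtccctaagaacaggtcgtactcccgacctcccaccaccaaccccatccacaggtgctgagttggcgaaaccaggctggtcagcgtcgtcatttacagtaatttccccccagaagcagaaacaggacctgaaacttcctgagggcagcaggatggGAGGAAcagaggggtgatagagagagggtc
C1qc, chr4:136892915-136893164, strand -: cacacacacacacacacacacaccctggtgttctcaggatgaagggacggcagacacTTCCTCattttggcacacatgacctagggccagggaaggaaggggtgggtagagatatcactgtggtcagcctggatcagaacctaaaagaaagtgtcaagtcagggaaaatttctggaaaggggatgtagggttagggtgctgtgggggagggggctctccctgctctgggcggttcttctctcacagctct
C3ar1, chr6:122856158-122856407, strand -: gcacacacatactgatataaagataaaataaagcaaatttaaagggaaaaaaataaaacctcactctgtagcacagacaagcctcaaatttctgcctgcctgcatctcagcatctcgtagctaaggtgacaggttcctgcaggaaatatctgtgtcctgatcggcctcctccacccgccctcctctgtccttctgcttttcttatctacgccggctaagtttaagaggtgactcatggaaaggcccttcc
C1qb held 1 match as read, C1qc held 1 match on the opposite strand, and in C3ar1 these letters were not in the window. Of all 32851 promoters in the table, 23.3% held the core on either strand within the same 250 bases, so a match is a description of these letters.

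The deposited table joined both panels of each mouse. Recovered counts showed that C1qa, C1qb, C3ar1 and C4a.b were on the panel of 757 genes and C4a on the panel of 509 genes. Totals were 921565 to 1957325 counts per mouse on the larger and 237563 to 774198 on the smaller panel. Females of the M28L and 5xFAD groups had the lowest totals (means of 1088008 and 1125810 on the larger panel), against means of 1626764 to 1738930 in the other 4 groups. The labels name no run, so a difference of P522R mice, or of the sexes, cannot be told apart from one between runs. C1qa, C1qb and C4a.b had 561 counts or more in every mouse and C3ar1 had 96 to 476, but C4a had 17 to 146. A call is an adjusted p under 0.05 from limma over all 1266 genes.

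**Figure D1:**
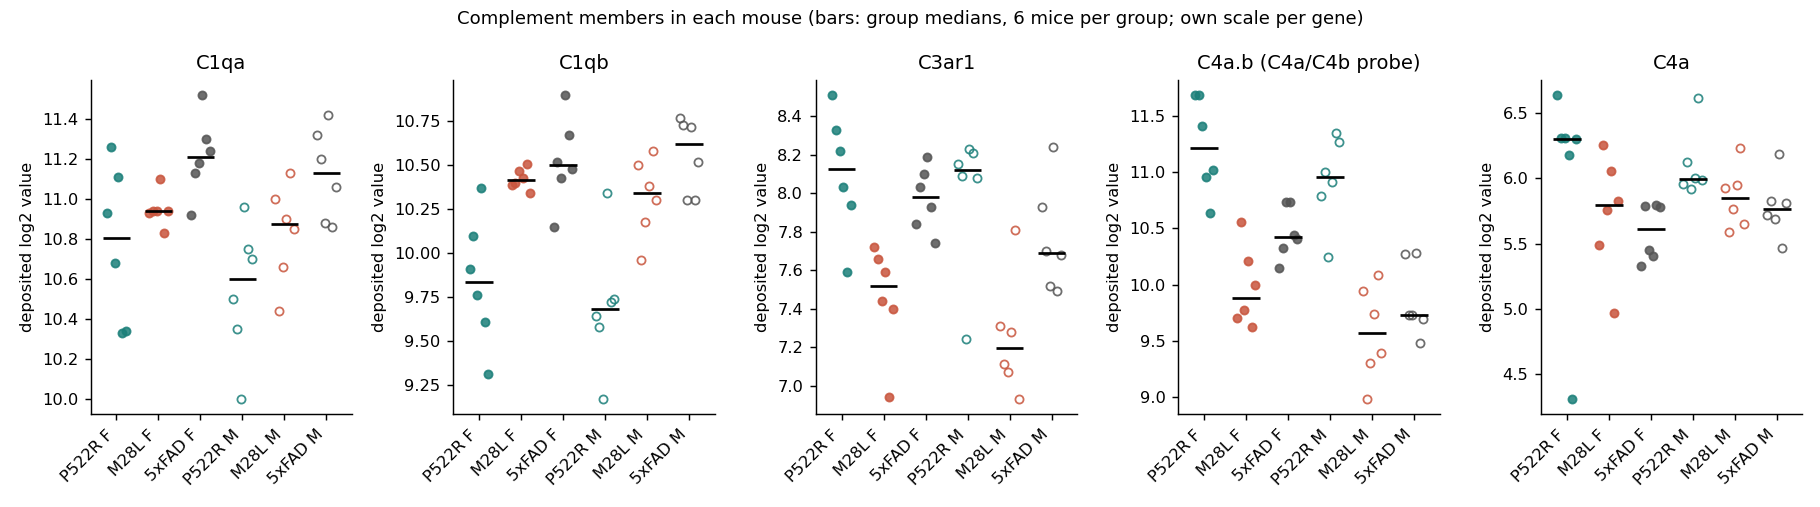
Deposited log2 value (vertical axis, a scale of its own for each gene) of the 5 complement members in each mouse of the 6 groups, with filled points for females (F), open points for males (M) and bars at group medians. All 12 P522R mice lie between 10.25 and 11.69 for C4a.b, and their medians are the lowest of the 3 genotypes for C1qa and C1qb in either sex.

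C1q was lower and C4a.b higher in P522R cortex than in 5xFAD cortex. C1qb, the B chain, fell 1.71-fold, C1qa, the A chain, fell 1.43-fold, and C4a.b rose 1.88-fold. C3ar1, the C3a receptor, and the separate C4a probe did not pass. Thus 3 of the 5 members were called, in a comparison in which 65.4% of all genes were, so the count alone does not set them apart.

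C1qb had log2 values of 9.31, 9.83 and 10.37 (lowest, median and highest of 6 mice) in P522R females, against 10.15, 10.50 and 10.90 in 5xFAD females. In males these values were 9.2, 9.68 and 10.34 with P522R, against 10.30, 10.62 and 10.77 in 5xFAD mice. The groups overlapped in both sexes only at their edges, and every P522R mouse lay below the 5xFAD mean of its sex. The difference was -0.77 ± 0.10 on the log2 scale (SE, n = 12 mice per genotype, adjusted p = 4.57e-08 with limma). C1qa had values of 10.33, 10.80 and 11.26 in P522R females, against 10.92, 11.21 and 11.52 in 5xFAD females. In males they were 10.00, 10.60 and 10.96 with P522R, against 10.86, 11.13 and 11.42 in 5xFAD mice. P522R mice spread more widely, with an SD of 0.39 in females and 0.34 in males, against 0.20 and 0.23 in 5xFAD mice, and the groups overlapped in both sexes. C1qa differed by -0.51 ± 0.10 (SE, adjusted p = 3.73e-05 with limma), and 11 of 12 P522R mice were below the 5xFAD mean of their sex.

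The C4a.b probe ran the other way. It had log2 values of 10.64, 11.21 and 11.69 in P522R females, against 10.15, 10.42 and 10.74 in 5xFAD females, and the groups overlapped only between 10.64 and 10.74. In males it had 10.25, 10.95 and 11.35 with P522R, against 9.48, 9.73 and 10.28 in 5xFAD mice, with the lowest P522R male just under the highest 5xFAD male. All 12 P522R mice were above the 5xFAD mean of their sex, and the difference was 0.91 ± 0.14 (SE, adjusted p = 4.25e-07 with limma). The C4a probe stood at 4.31, 6.3 and 6.64 in P522R females, against 5.33, 5.62 and 5.80 in 5xFAD females. In males it stood at 5.92, 5.99 and 6.62 with P522R, against 5.47, 5.76 and 6.19 in 5xFAD mice. All P522R females but one lay above all 5xFAD females, while the males overlapped. The difference of 0.37 ± 0.17 did not pass (SE, adjusted p = 0.0526 with limma). Without P522R female 60, which had 25 C4a counts, it was 0.54 (adjusted p = 0.000119 with limma). It also passed, at 0.37 to 0.41 and adjusted p of 0.0363 to 0.0499, without M28L female 14_F1 or 20, 5xFAD female 1189 or 1249, 5xFAD male 1268 or P522R male 27. C4a passed as well with other processing, at 0.50 with centring within each panel (adjusted p = 0.00655 with limma), 0.33 with housekeeping centring (adjusted p = 0.0408) and 0.29 with a pseudocount of 20 (adjusted p = 0.0259). It stayed uncalled in 9 of 13 alternatives and in 29 of 36 fits without 1 mouse, with adjusted p of up to 0.101 and 0.108 with limma.

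C3ar1 had log2 values of 7.59, 8.13 and 8.51 in P522R females, against 7.74, 7.98 and 8.19 in 5xFAD females. In males it had 7.24, 8.12 and 8.23 with P522R, against 7.49, 7.69 and 8.24 in 5xFAD mice. The groups overlapped throughout, and the difference was 0.19 ± 0.11 (SE, adjusted p = 0.143 with limma), with a 95% interval of -0.04 to 0.42. C3ar1 stayed uncalled in 13 of 13 alternatives and in 35 of 36 fits without 1 mouse. The exception was the fit without P522R male 27, where the difference was 0.26 (adjusted p = 0.0244 with limma). Without that mouse C4a also passed (0.39, adjusted p = 0.0499 with limma), which took the members called to 5 of 5. The share of all genes called in that fit was not counted.

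M28L cortex had less C3ar1 than 5xFAD cortex and no other member passed. C3ar1 had values of 6.94, 7.51 and 7.72 in M28L females, all of them below the 7.74, 7.98 and 8.19 of 5xFAD females. In males it had 6.93, 7.19 and 7.81 with M28L, against 7.49, 7.69 and 8.24 in 5xFAD mice, where the highest M28L male lay within the 5xFAD range. C3ar1 fell 1.42-fold (-0.51 ± 0.11 SE, adjusted p = 0.0021 with limma), and 11 of 12 M28L mice were below the 5xFAD mean of their sex. That made 1 of 5 members called, beside 10.3% of all genes.

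The remaining members in M28L mice had intervals that bound their size. C4a.b had 9.62, 9.89 and 10.56 in M28L females, against 10.15, 10.42 and 10.74 in 5xFAD females, and 8.98, 9.56 and 10.09 in M28L males, against 9.48, 9.73 and 10.28 in 5xFAD males. Its ranges overlapped in both sexes, and it differed by -0.39 ± 0.14 (SE, adjusted p = 0.0602 with limma, 95% interval -0.67 to -0.11). Leaving out a single mouse brought it past the threshold in 7 of 36 fits, at -0.45 (adjusted p = 0.0277 with limma) without M28L female 14_F1 and with adjusted p of up to 0.123 over all 36. C1qa, at 10.83, 10.94 and 11.10 in M28L females and 10.44, 10.87 and 11.13 in M28L males, differed from 5xFAD mice by -0.28 ± 0.10 (SE, adjusted p = 0.068 with limma, 95% interval -0.48 to -0.08), and passed in 4 of those 36 fits. C1qb differed by -0.17 ± 0.10 (SE, adjusted p = 0.325 with limma, 95% interval -0.38 to 0.04) and C4a by 0.10 ± 0.17 (SE, adjusted p = 0.776 with limma, 95% interval -0.24 to 0.44). In the M28L females C1qa and C1qb were tightly grouped, with SDs of 0.09 and 0.06, while their C4a.b values had an SD of 0.36. Both comparisons use the same 5xFAD mice, so their values for a member are not independent.

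**Figure D2:**
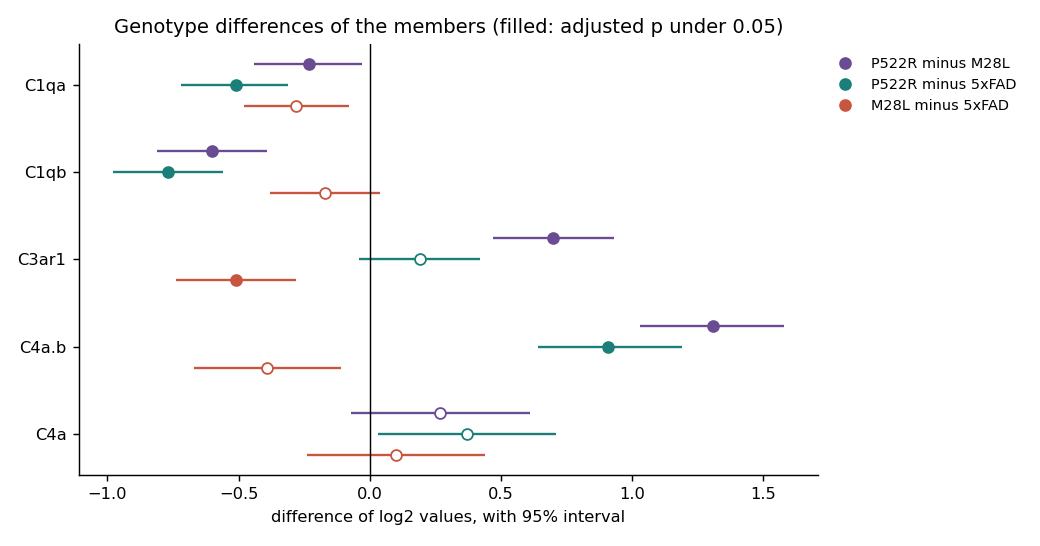
Difference of log2 values averaged over the sexes (horizontal axis) with its 95% interval for the 5 members, for P522R minus M28L, P522R minus 5xFAD and M28L minus 5xFAD mice, with filled points for an adjusted p under 0.05. C1qb lies at -0.77 and C4a.b at 0.91 for P522R minus 5xFAD, and C3ar1 at -0.51 for M28L minus 5xFAD.

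Set directly against each other, P522R mice had less C1q and more C3ar1 and C4a.b than M28L mice, with 4 of 5 members called beside 67.6% of all genes. C4a.b was 2.47-fold higher in P522R mice (1.31 ± 0.14 SE, adjusted p = 2.57e-10 with limma), and the groups did not overlap in either sex. The lowest P522R female had 10.64 and the highest M28L female 10.56, and the lowest P522R male had 10.25 and the highest M28L male 10.09. C3ar1 was 1.62-fold higher in P522R mice (0.70 ± 0.11 SE, adjusted p = 1.67e-06 with limma), and 11 of 12 P522R mice lay above the M28L mean of their sex. C1qb was 1.52-fold lower (-0.60 ± 0.10 SE, adjusted p = 3.91e-06 with limma). For C1qa the difference was small, -0.23 ± 0.10 (SE, adjusted p = 0.0417 with limma), and its call ended in 11 of the 36 fits that left out 1 mouse, at -0.18 to -0.23 and adjusted p of 0.0527 to 0.0996. These mice were P522R females 8, 49 and 60, P522R males 21, 23 and 27, M28L female 16 and M28L males 9, 10, 17 and 21. C4a had a difference of 0.27 ± 0.17 (SE, adjusted p = 0.156 with limma), which became 0.44 (adjusted p = 0.00122 with limma) without P522R female 60 and 0.50 (adjusted p = 0.00638 with limma) with centring within each panel. C4a stayed uncalled here in 13 of 15 alternatives and in 35 of 36 fits without 1 mouse.

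Within a sex the P522R differences kept their sizes. In P522R females against 5xFAD females C1qa, C1qb and C4a.b were called at -0.44, -0.68 and 0.77, beside 60.2% of all genes. In P522R males against 5xFAD males they were called at -0.58, -0.86 and 1.06, beside 50.6%. Against M28L mice, C1qb, C3ar1 and C4a.b were called in females at -0.58, 0.64 and 1.26, beside 61%, and in males at -0.62, 0.75 and 1.36, beside 50%. In M28L against 5xFAD mice 0 of 5 members passed in females (3.87% of all genes did) and 0 of 5 in males (2.05%), although C3ar1 differed by -0.51 in each sex (adjusted p = 0.0619 and 0.105 with limma, unadjusted p = 0.00299 and 0.00308). At an unadjusted p under 0.05, C3ar1 and C4a.b would pass in females and C3ar1 and C1qa in males. The difference of a genotype effect between the sexes was called for 0 of 5 members in each of the 3 comparisons, with limma's unadjusted p from 0.287 to 0.994 over all 15 tests. Among all genes such an interaction was called for 0% in M28L against 5xFAD (34 genes at an unadjusted p under 0.05), 20.9% in P522R against 5xFAD and 23.5% in P522R against M28L mice. The widest of these intervals belonged to C4a, so a sex difference of moderate size was not detectable there.

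C4a.b was the member that differed between females and males. Averaged over genotypes it was 1.35-fold higher in females (0.44 ± 0.11 SE, n = 18 mice per sex, adjusted p = 0.000548 with limma). All other members missed the threshold, at 0.15 for C1qa, 0.07 for C1qb, 0.17 for C3ar1 and -0.14 for C4a. That is 1 of 5 called beside 86.4% of all genes, most of which were lower in females, with a median of -0.379. Under 4 other scalings the median of all genes was between -0.115 and -0.012, and there C4a.b stood at 0.70 to 0.77, while C1qa (0.41 to 0.47), C1qb (0.33 to 0.41) and C3ar1 (0.43 to 0.52) were called as higher in females too. C4a turned to between 0.13 and 0.34 under these scalings, for which the share of all genes called was not counted. By genotype, the F minus M difference of C4a.b was 0.31 in P522R mice (adjusted p = 0.154 with limma, beside 69.6% of all genes called), 0.40 in M28L mice (adjusted p = 0.0636, beside 69%) and 0.60 ± 0.19 in 5xFAD mice (SE, adjusted p = 0.00602, beside 72%).

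The order of group means differed between C1q and C4. For C1qa it ran 5xFAD females, 5xFAD males, M28L females, M28L males, P522R females and P522R males, from 11.22 ± 0.20 down to 10.54 ± 0.34 (SD, n = 6). The step of 0.18 from 5xFAD males to M28L females was the one neighbouring step of C1qa larger than the pooled SD of its groups, 0.17. For C1qb the order began with 5xFAD males at 10.56 ± 0.22, and the one step beyond the spread was 0.47, between M28L males and P522R females. C4a.b ran from P522R females at 11.23 ± 0.43 and P522R males at 10.93 ± 0.39, by steps of 0.46 and 0.49 beyond the spread, to 5xFAD females at 10.47 ± 0.24 and M28L females at 9.98 ± 0.36. 5xFAD males at 9.87 ± 0.33 and M28L males at 9.57 ± 0.42 followed within the spread. C3ar1 had P522R females and males and both 5xFAD groups within the spread of their neighbours, between 8.1 ± 0.33 and 7.76 ± 0.28, and then a step of 0.30, beyond the spread, down to M28L females, with M28L males next and within it. For C4a no neighbouring groups differed beyond their spread.

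C4a.b, C1qa, C1qb and C3ar1 share a panel, so a difference between a pair of them within a mouse does not depend on that mouse's scaling. These differences are set side by side between groups, and a difference of 0 has no meaning between probes. C4a.b minus the mean of C1qa and C1qb was 0.22, 1.10 and 1.27 (lowest, median, highest) in P522R females, against -0.55, -0.46 and -0.06 in 5xFAD females. In P522R males it was 0.26, 0.88 and 1.1, against -1.24, -0.98 and -0.78 in 5xFAD males. M28L mice had -1.05, -0.79 and -0.11 in females and -1.22, -1.01 and -0.76 in males. All 12 P522R mice were therefore above all 24 others. The measure combines results already given, lower C1q and higher C4a.b in P522R mice, so it adds no separate support. Other gene pairs were not counted this way. Of all genes 65.4% were called in P522R against 5xFAD and 67.6% in P522R against M28L mice. On average C4a.b stood 2.94-fold higher relative to C1q in P522R than in 5xFAD mice and 3.30-fold higher than in M28L mice, while M28L and 5xFAD mice differed by -0.17. The females and males of 5xFAD mice also did not overlap, with females 0.57 higher, but in P522R and M28L mice the sexes overlapped.

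**Figure D3:**
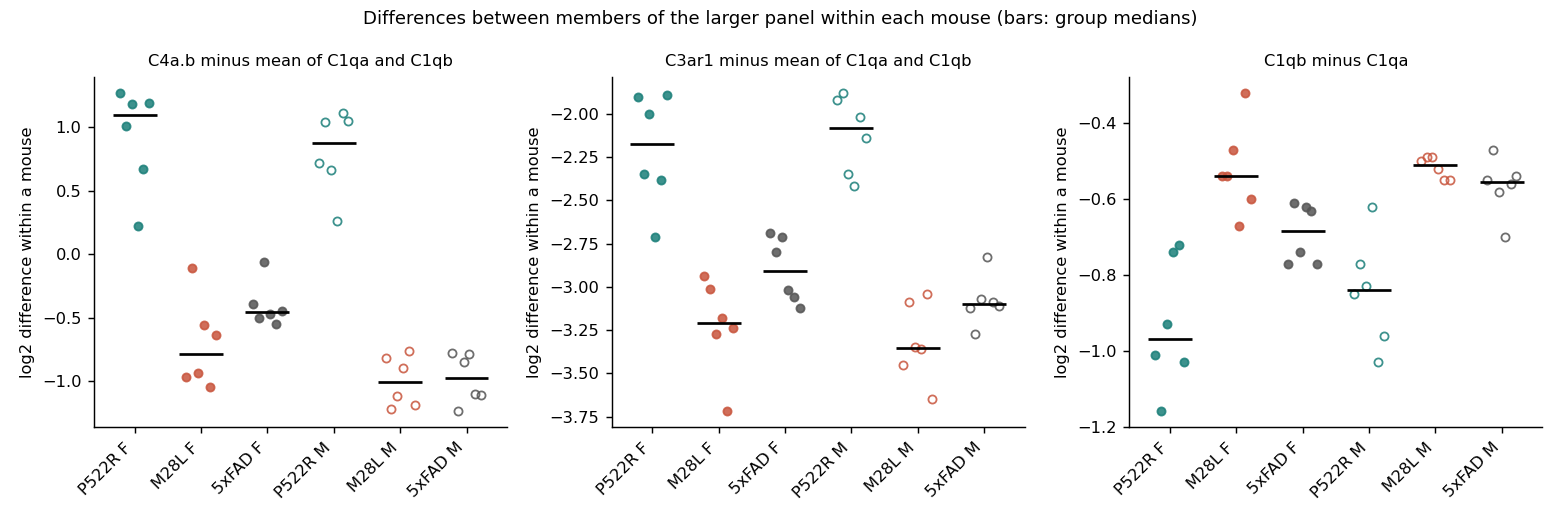
Log2 difference between members of the larger panel within each mouse (vertical axes) in the 6 groups, for C4a.b minus C1q, C3ar1 minus C1q and C1qb minus C1qa, with bars at group medians. P522R mice lie at 0.22 or above for C4a.b minus C1q, and all others at -0.06 or below.

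The same view split the C1q chains. C1qb minus C1qa had a median of -0.97 in P522R females, against -0.54 in M28L females and -0.69 in 5xFAD females, and of -0.84 in P522R males, against -0.51 in M28L males and -0.56 in 5xFAD males. The difference was -0.26 on average between P522R and 5xFAD mice, so the shortfall of C1qb in P522R mice exceeded that of C1qa, with overlap between the groups in both sexes. C1qc, which encodes the C chain and is no member, kept pace with C1qa, with a difference of 0.03 for C1qc minus C1qa between the same mice. C3ar1 minus the mean of C1qa and C1qb was -2.71 to -1.89 in P522R females, against -3.12 to -2.69 in 5xFAD females, and -2.42 to -1.88 in P522R males, against -3.27 to -2.83 in 5xFAD males. Relative to C1q, then, C3ar1 stood 1.78-fold higher in P522R than in 5xFAD mice, with overlap only at one edge in females. This measure too combines results already given and adds no separate support. C3ar1 itself differed by 0.19 and did not pass, while C1qa and C1qb differed by -0.51 and -0.77. In M28L mice it stood 1.22-fold lower than in 5xFAD mice, at -3.72 to -2.94 in females and -3.65 to -3.04 in males, with overlap in both sexes.

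Within groups most pairs of members varied together across mice. Over the 36 mice, as deviations from the mean of each mouse's own group, C1qa and C1qb had r = 0.91, C3ar1 and C4a.b r = 0.80, and C1qa and C4a.b r = 0.72. For C1qb and C4a.b it was lower, r = 0.50. These are descriptions, since the values of a mouse share its RNA and, on a panel, its scaling constant. Centring each panel on its median left them at 0.89, 0.78, 0.69 and 0.42. Over the 6 group means C1qa and C4a.b had r = -0.44, the opposite sign, and C1qb and C4a.b had r = -0.77. A mouse with more C4a.b than its group thus also tended to have more C1q, while the P522R groups as a whole had more C4a.b and less C1q. The C4a and C4a.b probes had r = 0.64 within groups, and C4a and C1qb, at 0.23, were the least alike pair.

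**Figure D4:**
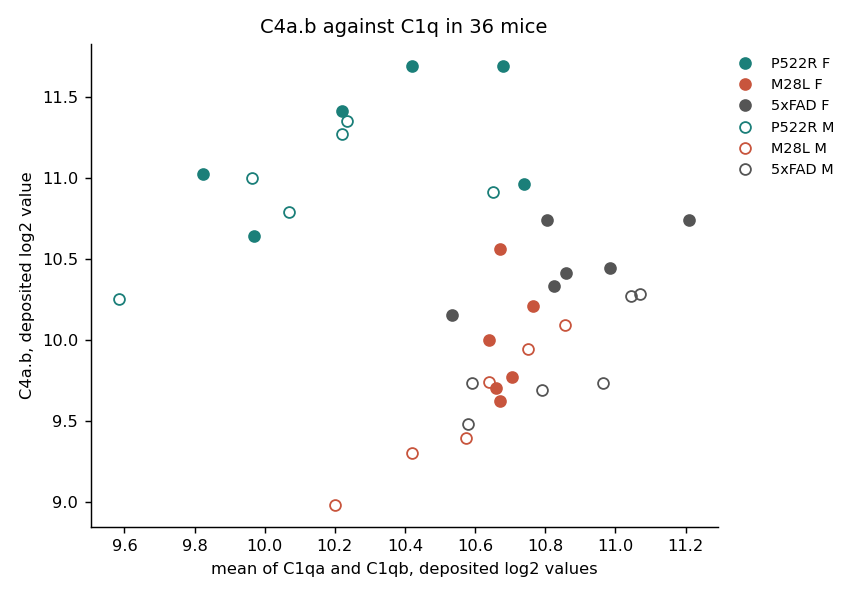
C4a.b (vertical axis) against the mean of C1qa and C1qb (horizontal axis), both deposited log2 values, in 36 mice by genotype and sex, with filled points for females (F) and open points for males (M). P522R mice lie above the others relative to C1q. On the C4a.b axis alone their values of 10.25 to 11.69 overlap those of the other mice, which reach 10.74.

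The genes most like each member by the same measure over 36 mice were as follows. C1qa was closest to C1qc (r = 0.97), then to the microglial receptor genes Fcrls and Trem2 and the lysosomal protease gene Ctsd (0.91 each), beside C1qb. C1qb was closest to C1qc (0.92), followed by C1qa, Trem2 (0.85), the protease gene Ctss (0.84) and Sparc (0.83), which encodes a matrix-binding protein. C3ar1 had its highest values with Gfap, the astrocyte intermediate filament, and Csf1r, the receptor that microglia need to survive (0.87 each), then with Tgfbr2 (0.86), Cd68 and Csf1 (0.85 each). C4a.b was closest to Gfap (0.90), followed by Tgfbr2 (0.87), Ctsd and Serpina3n, a serpin of reactive astrocytes (0.84 each), and Fcrls (0.83). C4a was closest to Slc11a1 (0.83), then to Cd44 and Gnptab (0.80 each), and Trim28 (0.78) was also among its nearest, all of them genes of its own panel. These genes did not all share the genotype differences. In P522R against 5xFAD mice Trem2 fell by 0.31, Fcrls by 0.23 and C1qc by 0.48, but Ctsd (-0.07) and Ctss (-0.09) did not pass. Serpina3n rose by 0.57, Trim28 by 0.34, Tgfbr2 by 0.29, Csf1 by 0.24 and Csf1r by 0.23. Gfap, in contrast, had a difference of -0.03 ± 0.12 (SE, adjusted p = 0.843 with limma), and Cd68 (-0.09) did not pass. In M28L mice Gfap fell by 0.38, Serpina3n by 0.54, Trem2 by 0.43, Cd68 by 0.54 and Csf1 by 0.41. Tgfbr2 was at -0.41 and Ctsd at -0.40 there, while C1qc, Fcrls, Ctss and Csf1r did not pass.

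Markers of the cell types are set beside the share of all genes called, 65.4% in P522R and 10.3% in M28L against 5xFAD mice. A count near these shares does not set a list apart, and the part of cell types in the members' differences was not tested. The genes named for a list are the 2 of smallest p in that comparison, so they need not show the direction of its other genes. In P522R against 5xFAD mice 4 of 19 homeostatic microglia genes were higher and 6 lower, among them Mertk at 0.50 and Aif1 at -0.80. Of 20 genes of disease-associated microglia 5 were higher and 6 lower, including Apoe at -0.38 and Cd9 at -0.44, while Itgax of this list was at 0.85. Of 7 astrocyte genes 5 were higher and 1 lower (Slc1a3 at 0.37, S100b at -0.46), and of 15 reactive astrocyte genes 5 were higher and 3 lower (Tgm1 at 1.31, Cxcl10 at 0.67). Of 8 oligodendrocyte genes 2 were higher and 2 lower (Bcas1 at -0.78, Mbp at -0.47), and of 10 neuronal genes 7 were higher and 2 lower (Gad1 at 0.52, Gad2 at 0.48). In M28L against 5xFAD mice 16 of 20 disease-associated microglia genes were lower (Ccl3 at -1.26, Lilrb4a at -1.05), and of 19 homeostatic genes 5 were lower and 1 higher (Spi1 at -0.33, Cx3cr1 at -0.42). There 3 of 15 reactive astrocyte genes were lower and 1 higher, with Serpina3n at -0.54 and Hspb1 at 0.75, and 0 of 7 astrocyte, 0 of 8 oligodendrocyte and 0 of 10 neuronal genes passed with limma (2, 1 and 3 at an unadjusted p under 0.05).

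In summed linear levels the genes of most counts weigh most, so a sum need not hold for each gene of its list. Examples are Ctsd in the disease-associated list (mean of 15825.3 counts) and Gfap in the reactive astrocyte list (4888.7). Trem2 is in both microglia lists. The summed linear level of the 19 homeostatic microglia genes was 10499 to 21019 in P522R females, 10750 to 13313 in M28L females and 13492 to 18040 in 5xFAD females. In males it was 9885 to 16283 with P522R, 9715 to 14121 with M28L and 11877 to 15446 in 5xFAD mice. The P522R ranges spanned those of 5xFAD mice of the same sex, while M28L and 5xFAD females did not overlap. For the 20 genes of disease-associated microglia it was 28173 to 52631 in P522R females, 28993 to 33342 in M28L females and 36339 to 48202 in 5xFAD females. In males it was 25153 to 41297 with P522R, 28070 to 37597 with M28L and 35284 to 43508 in 5xFAD mice. There too M28L and 5xFAD females did not overlap. For the 7 astrocyte genes it was 36064 to 52123 in P522R females, 32065 to 45847 in M28L females and 34429 to 39468 in 5xFAD females. It was 50804 to 58970, 52250 to 54563 and 50540 to 55328 in males with P522R, with M28L and in 5xFAD mice. The sum of the 15 reactive astrocyte genes was 5346 to 10675 in P522R females, 6599 to 8436 in M28L females and 7821 to 9730 in 5xFAD females, and 4873 to 7757 in P522R males, 4502 to 6946 in M28L males and 5820 to 7945 in 5xFAD males. The astrocyte and reactive astrocyte sums overlapped between the genotypes in both sexes. The 8 oligodendrocyte genes summed to 25259 to 35438 in P522R females, 21937 to 31918 in M28L females and 24588 to 30247 in 5xFAD females, and to 29297 to 35676, 26714 to 29679 and 27105 to 31028 in males with P522R, with M28L and in 5xFAD mice, with overlap of P522R and 5xFAD mice in both sexes. For the 10 neuronal genes the sum was 58677 to 68056 in P522R females, 44067 to 52985 in M28L females and 45375 to 54326 in 5xFAD females. It was 72893 to 83993, 61151 to 65525 and 67511 to 70030 in males with P522R, with M28L and in 5xFAD mice, so that all P522R mice lay above the 5xFAD mice of their sex. The 7 endothelial and pericyte genes summed to 837 to 1037 in P522R females, 650 to 838 in M28L females and 742 to 969 in 5xFAD females, with overlap. In males the sum was 965 to 1253 with P522R, 1267 to 1396 with M28L and 1312 to 1690 in 5xFAD mice, and P522R males lay below all 5xFAD males. No marker had a group mean of 0 counts, and the dimmest, in the reactive astrocyte list, averaged 4.8 counts in M28L females. Brain-border macrophage and monocyte genes were represented by Ccr2 and Cd163, with Cd163 at 0.80 in P522R against 5xFAD mice and a summed level of at most 77 in any mouse. Of the 7 endothelial and pericyte genes 1 was higher and 2 were lower in P522R against 5xFAD mice, beside 65.4% of all genes. Among these were Pdgfrb at 0.49 and Cldn5 at -0.48. In M28L against 5xFAD mice 1 was higher and 1 lower (Slc2a1 at 0.40, Cldn5 at -0.55), beside 10.3%.

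Of a list of 46 complement genes, 16 were measured, and 11 of these are no members. In P522R against 5xFAD mice 6 of the 11 were higher and 1 lower, beside 65.4% of all genes called, so the count does not set them apart. Their median was 0.28, beside 0.08 over all genes. C1s1 and C1ra, which encode the proteases that C1q activates, rose by 0.61 and 0.27. Clu, the fluid-phase inhibitor clusterin, rose by 0.18, Itgax, a subunit of complement receptor 4, by 0.85, Cfi, the protease factor I, by 0.58 and C6, of the membrane attack complex, by 0.93. C1qc fell by 0.48. Values for C3 (0.28 ± 0.21 SE), Hc, which encodes C5 (0.55 ± 0.26), Serping1, the C1 inhibitor (0.23 ± 0.11), and Itgam, of complement receptor 3 (-0.07 ± 0.10), did not pass (adjusted p of 0.221, 0.0619, 0.0761 and 0.537 with limma).

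For 3 of these 11 genes the difference between P522R and 5xFAD mice was called as unlike in females and males, beside 20.9% of all genes. C1ra differed by 0.59 in P522R females against 5xFAD females (adjusted p = 0.00191 with limma) and by -0.05 in males (adjusted p = 0.812), and the difference between the sexes was itself called (0.64 ± 0.22 SE, adjusted p = 0.0368 with limma). Clu differed by 0.36 in females (adjusted p = 0.000346 with limma) and by 0.00 in males (adjusted p = 0.975), with a called difference between the sexes of 0.37 ± 0.12 (SE, adjusted p = 0.023 with limma). C3, which did not pass on average, rose by 0.91 in females (adjusted p = 0.00822 with limma) and had -0.34 in males (adjusted p = 0.341), and these differed by 1.25 ± 0.41 (SE, adjusted p = 0.0279 with limma). Serping1 also rose in females, by 0.41 (adjusted p = 0.0268 with limma), against 0.04 in males, but the difference between the sexes did not pass (adjusted p = 0.263). Against M28L mice such a difference was called for Clu alone among the 11 genes (0.43, adjusted p = 0.00608 with limma), beside 23.5% of all genes. Females of the 5xFAD and M28L groups also had the lowest totals, and the part of depth in these differences was not tested.

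Several of these calls rest on few counts. C1s1 had group medians of 8.0 to 21.5 counts, C3 of 6.5 to 18.5, Cfi of 5.5 to 16.5 and C6 of 3.0 to 13.5. Hc, whose averaged genotype differences did not pass, had 3.0 to 11.5. C1ra had 18.5 in M28L females and 22.5 in 5xFAD females, against 42.0 to 48.0 in the other groups. With quantile normalization the calls of C1s1 (0.14), C6 (0.01), C1ra (0.11) and Clu (0.08) ended and Cfi turned to -0.08. C1qc and Itgax were still called, as were C1qa, C1qb and C4a.b. The call of C1ra ended in 6 of 13 alternatives and 8 of 36 fits without 1 mouse, and that of Clu in 3 of 13 alternatives. In M28L against 5xFAD mice Itgax fell by 1.40 and the other 10 genes did not pass, beside 10.3% of all genes called, with a median of -0.04 over the 11. Against M28L mice, P522R mice had 7 of the 11 higher and 1 lower, beside 67.6% of all genes called. These were Itgax at 2.25, C6 at 0.93, C3 at 0.60, C1s1 at 0.57, Cfi at 0.53, C1ra at 0.47, Clu at 0.22 and C1qc at -0.29. Of these 8 calls that of Itgax held under every alternative tried, and those of the other 7 ended under 1 to 5 alternatives each.

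**Figure D5:**
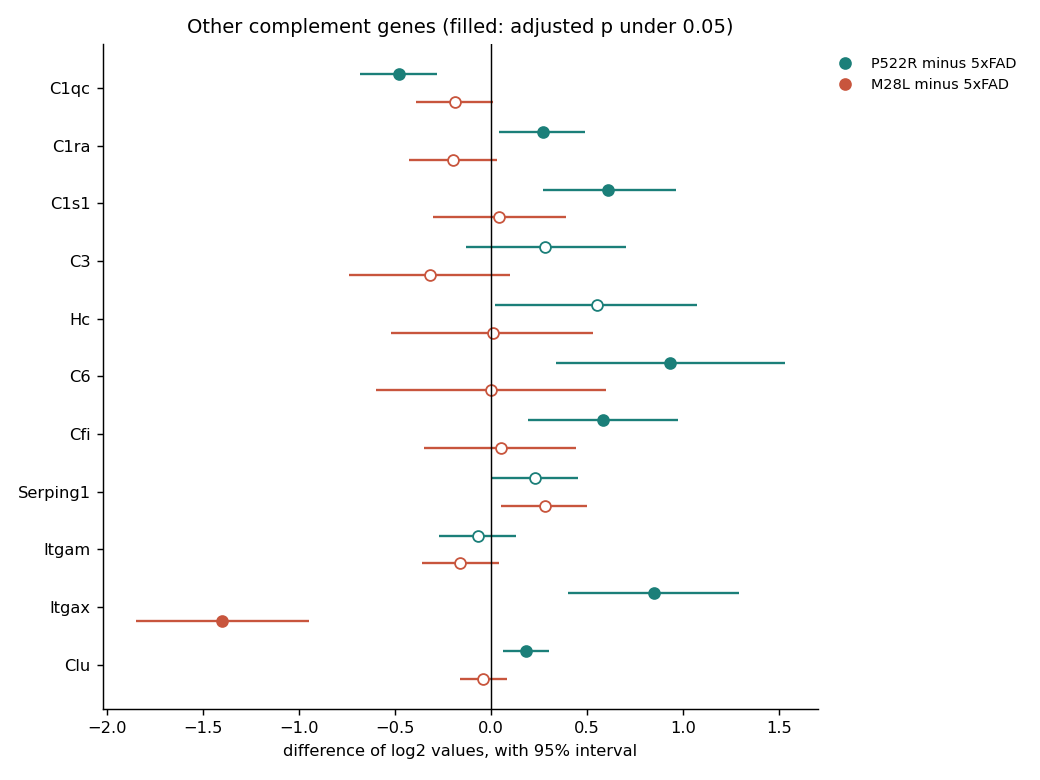
Difference of log2 values averaged over the sexes (horizontal axis) with its 95% interval for the 11 other complement genes, for P522R minus 5xFAD and M28L minus 5xFAD mice, with filled points for an adjusted p under 0.05. C1qc lies at -0.48 for P522R mice, while Itgax lies at 0.85 for P522R mice and at -1.40 for M28L mice.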

How the data were processed

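Cortical RNA, extracted with a PureLink kit, was hybridised to the NanoString Glial and Neuropathology panels, per the labels' protocols. The values that the authors deposited are on a log2 scale, in a table with a column for each mouse that joins both panels. The normalization method was not given in the sources used here. Of 1517 rows, 251 named no gene and were left out. Each mouse had 2 smallest linear steps, and 100.0% of linear values were whole numbers of either step (tolerance 0.05 counts), which gave back counts and the panel of each gene.

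Differences were fitted on the deposited log2 values with limma 3.58.1 in R 4.3.3, with 6 group means, a shared spread over 36 mice and an eBayes trend. Genotype contrasts were averaged over the sexes, tests were two-sided, with Benjamini-Hochberg adjustment over 1266 genes. No pseudocount or filter was used. The fit was tested on simulated data. Named genes were the members, called genes of the complement list, the 5 genes most like each member (1 of them is not reported here), and 2 genes per marker list. Members and lists were chosen with earlier results of these data known. Each mouse is a separate animal by its genotype and number, except a pair of M28L females that share number 14 and were both kept. Number 21 was given to an M28L male and to a P522R male. Nothing in the labels pairs mice, so p-values measure the spread between mice. Alternatives were other scalings, filters, variance models, subsets and leaving out each mouse.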

Additional observations from a re-analysis of the deposited data

Results flagged for a closer look

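Among 30 sets of 6 mice (5 members in 6 groups), 3 had a mouse whose gap to its nearest neighbour exceeded 0.625 of the group's range, Dixon's 95% value for 6 mice. Chance flags about 1 in 20 groups. C3ar1 stood at 7.24 in P522R male 27 (150 counts), against 8.08 to 8.23 in the other P522R males. The same mouse had the lowest C1qa (10.00), C1qb (9.2) and C4a.b (10.25) of its group, while its C4a.b minus C1q difference of 0.66 lay inside the group's range. C4a stood at 4.31 in P522R female 60 (25 counts), against 6.18 to 6.64 in the other P522R females. C4a stood at 6.62 in P522R male 30 (44 counts), against 5.92 to 6.1 in the other P522R males. Male 30 also had the lowest total of the P522R males on the panel that holds C4a, 259284 counts, while female 60 had 553880. Of 48 genotype effects compared between the sexes (33 of them for other complement genes), 4 differed with limma, namely P522R against 5xFAD for C1ra (0.64 higher in females), C3 (1.25) and Clu (0.37), and P522R against M28L for Clu (0.43). Of all genes 20.9% were called this way in P522R against 5xFAD, 23.5% in P522R against M28L and 0% in M28L against 5xFAD mice. The count of 4 therefore does not set these genes apart.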

How the results depend on the processing

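The calls of C1qa, C1qb and C4a.b in P522R against 5xFAD mice, of C1qb, C3ar1 and C4a.b in P522R against M28L mice and of C3ar1 in M28L mice held under each other setting tried and in all 36 fits without 1 mouse. In M28L against 5xFAD mice the members called were 3 with median centring and without the third genotype and 2 with the number 14 mice as their mean, in place of 1. They were 3 without P522R female 60 and male 30, whose C4a values lay apart, an alternative chosen after seeing the data. Leaving out single mice gave 1 to 3 calls there (more than 1 without M28L female 14_F1, M28L males 10 and 21, 5xFAD female 1180, 5xFAD male 1269, P522R female 60 or P522R male 27), 3 to 5 for P522R against 5xFAD mice, 3 to 4 for P522R against M28L mice, and 1 to 3 for F against M (more than 1 without M28L female 20, M28L male 21, P522R female 8 or 60, P522R male 29 or 5xFAD male 1268). F against M gave 4 calls with median centring, quantile normalization or housekeeping centring, 5 with centring within each panel, 2 with M28L mice restricted to index 7 to 9 and 3 without female 60 and male 30. The share of all genes called was counted for the main fit only. Member counts under other settings therefore have no share beside them and cannot set the members apart. The F minus M value of C4a turned to 0.19, 0.24, 0.13, 0.34 and, without female 60 and male 30, 0.01. Cfi turned to -0.08 with quantile normalization in P522R against 5xFAD mice. Causes were not tested. Housekeeping centring, on 2 genes, moved the median of all genes by 0.167 in M28L against 5xFAD mice, with C3ar1 at -0.34. The C1qa call in P522R against M28L mice also ended without the trend, the sex term or the third genotype and with M28L mice restricted to index 1 to 3 (-0.17, adjusted p = 0.278 with limma). Nothing in the labels says that equal index numbers pair mice. Of 22 same-index pairs 1 had r over 0.1. Pairs of unlike index were not set beside them, so this cannot decide whether mice of an index share an effect. With the index as a replicate block F against M gave 2 calls and C1qa in P522R against M28L mice had -0.14 (adjusted p = 0.356 with limma). Depth limits C4a and the other complement genes of few counts.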
